A study of Rattus norvegicus with 6 samples.

Results

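Brush border peptidases are enzymes of the luminal microvilli of the proximal tubule, and 8 genes of this membrane are described here in the renal cortex of rats: Mme, Mep1b, Mep1a, Anpep, Dpp4, Xpnpep2, Naaladl1 and Treh. They were chosen by name, and their probes were found through the accession that each array probe carries. They are 8 of the 15284 genes with a named probe, and 14 probes stand for them. Of the 8 genes, 7 encode peptidases and Treh encodes trehalase, which splits the sugar trehalose into glucose, so that the set holds 1 enzyme that is no peptidase. RNA came from male Sprague-Dawley rats, an outbred stock, bought at 5 weeks of age. In the TCEP group, 3 rats were given tris(2-chloroethyl)phosphate, an organophosphate flame retardant, at 400 mg/kg/day over 4 weeks. In the vehicle group, 3 rats were given corn oil over the same 4 weeks. All 6 rats ate the same basal diet, and the age at the end of dosing follows from these times only if dosing began at purchase, which the labels do not state. Each rat was measured on 1 single-colour Agilent array.

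The proximal tubule reabsorbs filtered proteins, peptides, sugars and amino acids. Peptidases anchored in its brush border cut filtered peptides down to amino acids and short peptides, which carriers in the same membrane take up. The same enzymes inactivate circulating peptide hormones such as bradykinin, angiotensins, natriuretic peptides and incretins. Expression of several of them differs along the tubule, between its convoluted part in the outer cortex and its straight part near the medulla.

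A level is given as the log2 of a gene's signal over the signal at the 75th percentile of the same array. A difference is the TCEP mean minus the vehicle mean of such levels, and ± stands for the SD of the 3 rats in a group. The 75th percentile itself was 966 to 1078 intensity units, and 67.2% to 69.3% of 61657 probes rose well above background, depending on the array. All TCEP arrays lay on slide 2 and all vehicle arrays on slide 1, with 1 scan time per slide, so that slide and treatment cannot be told apart in any comparison below. All 8 genes were well above background on all 6 arrays through at least 1 probe, and all 8 were therefore tested. In whole cortex, fewer cells of a type and less RNA per cell cannot be told apart.

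The genes of the 3 metalloendopeptidases, which cut inside peptide chains, each had a higher mean after TCEP, by less than the distance between the highest and the lowest rat within either group. Mme encodes neprilysin, which degrades natriuretic peptides and enkephalins. Its levels were 4.77, 3.99 and 3.29 in TCEP replicates 1, 2 and 3, against 3.48, 4.01 and 2.70 in vehicle replicates 1, 2 and 3. TCEP replicate 1 was the highest and vehicle replicate 3 the lowest of the 6 rats, and the groups overlapped. The means were 4.02 ± 0.74 in TCEP and 3.39 ± 0.66 in vehicle cortex. The difference was 0.62 (SE 0.47, 95% confidence interval -0.54 to 1.78, adjusted p = 0.753 with limma and Benjamini-Hochberg adjustment over 11802 genes). On the linear scale Mme stood at 1.54 times its vehicle level, and the interval of this ratio ran from 0.690 to 3.44. Mme was read by 1 probe only, as were Anpep and Xpnpep2, so no further probe could be set beside it. The difference was 0.25 without TCEP replicate 1, 0.28 without vehicle replicate 3 and 0.99 without TCEP replicate 3.

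Mep1b encodes the beta subunit of meprin, an astacin-type protease that is held in the membrane. It was at 5.46, 4.91 and 4.15 in TCEP replicates 1, 2 and 3, against 4.36, 5.48 and 3.67 in vehicle replicates 1, 2 and 3. Vehicle replicate 2 was as high as the highest TCEP rat, and vehicle replicate 3 was the lowest of all. The highest of the TCEP rats exceeded the lowest by 2.48-fold, and the highest of the vehicle rats exceeded the lowest by 3.49-fold. The groups differed by 0.33 (SE 0.54, 95% confidence interval -0.98 to 1.65, adjusted p = 0.887 with limma). Without vehicle replicate 3 the difference turned to -0.08, and it was 0.02 without TCEP replicate 1, 0.68 without TCEP replicate 3 and 0.82 without vehicle replicate 2. A further Mep1b probe ordered the rats of each group the same way and differed by 0.37 (SE 0.58). For these probes the correlation over the 6 arrays was r = 0.995, a description of 2 probes read on the same arrays.

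Mep1a, for the alpha subunit of meprin, was at 4.42, 3.98 and 3.81 in TCEP replicates 1, 2 and 3, against 3.47, 3.99 and 3.75 in vehicle replicates 1, 2 and 3. Each TCEP rat lay above the vehicle median, while vehicle replicate 2 lay inside the TCEP range. The difference was 0.33 (SE 0.20, 95% confidence interval -0.16 to 0.83, adjusted p = 0.703 with limma), and it was 0.37 (SE 0.19) on the other Mep1a probe. Leaving out TCEP replicate 1 gave 0.16, and leaving out vehicle replicate 1 gave 0.20.

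**Figure D1:**
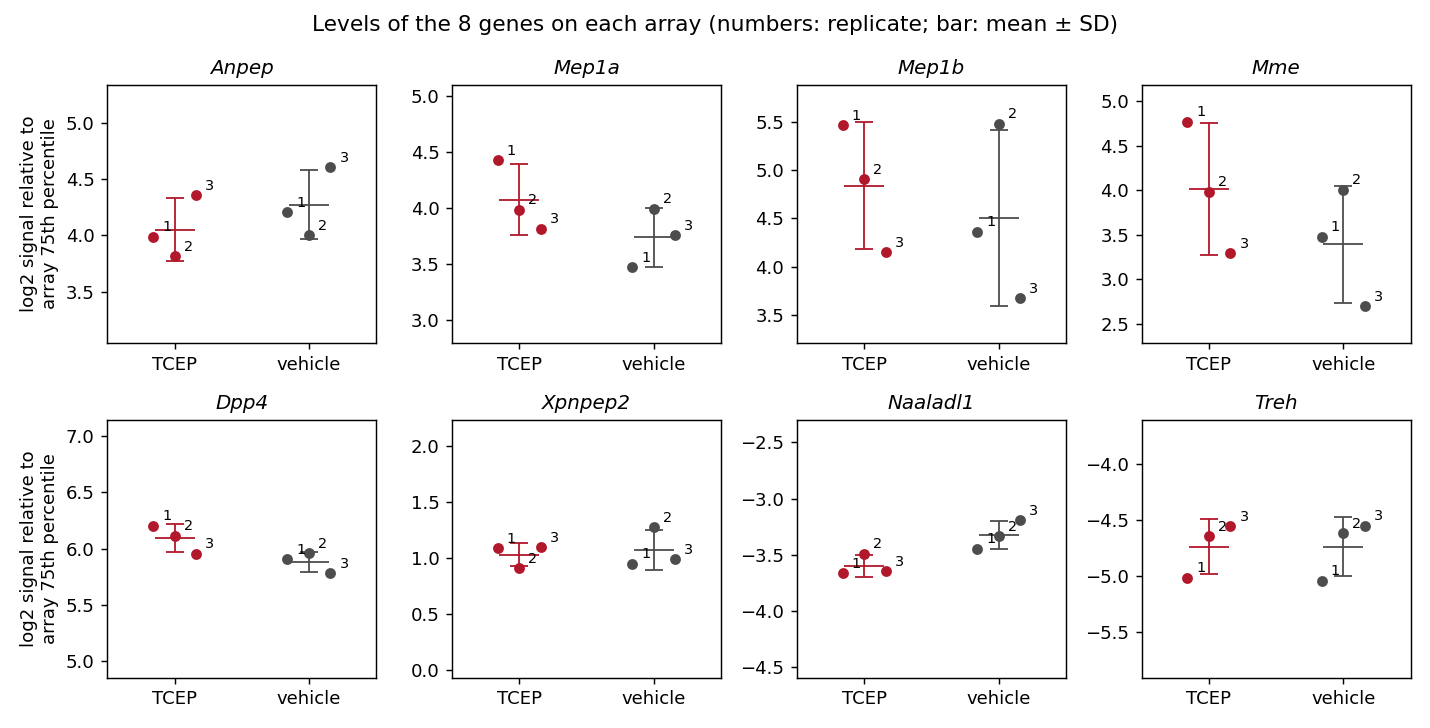
Levels of the 8 genes in TCEP and vehicle cortex, as log2 signal relative to the array's 75th percentile; points are rats, numbered by replicate, and the bar is the mean ± SD of 3 rats. All panels span at least 2.3 log2 units. Mep1b and Mme are spread most within groups, and Naaladl1 alone shows no overlap, with all 3 TCEP rats below all 3 vehicle rats.

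The exopeptidases, which remove residues from the end of a peptide, did not share 1 direction. Anpep encodes aminopeptidase N, which removes neutral residues from peptide N-termini and is among the abundant proteins of the brush border. It was at 3.99, 3.81 and 4.36 in TCEP replicates 1, 2 and 3, against 4.21, 4.004 and 4.61 in vehicle replicates 1, 2 and 3. Replicate 3 was the highest rat of both groups, and only TCEP replicate 3 lay above the vehicle median. The means were 4.05 ± 0.28 in TCEP and 4.27 ± 0.31 in vehicle cortex, a difference of -0.22 (SE 0.20, 95% confidence interval -0.72 to 0.28, adjusted p = 0.788 with limma). It was -0.05 without vehicle replicate 3 and -0.37 without TCEP replicate 3.

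Dpp4 encodes dipeptidyl peptidase 4, which removes dipeptides ending in proline or alanine and inactivates incretins. Its levels were 6.20, 6.11 and 5.95 in TCEP replicates 1, 2 and 3, against 5.91, 5.96 and 5.78 in vehicle replicates 1, 2 and 3. The groups overlapped through TCEP replicate 3 and vehicle replicate 2 alone, which stood next to each other. The difference was 0.21 (SE 0.09, 95% confidence interval -0.01 to 0.43, unadjusted p = 0.0622 and adjusted p = 0.609 with limma), or 1.16 times the vehicle level. The other Dpp4 probes differed by 0.19 (SE 0.11) and 0.12 (SE 0.11), so that all 3 probes had the same sign. No Dpp4 probe was saturated on any array.

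Xpnpep2 encodes membrane-bound aminopeptidase P, which cuts before proline and removes the first residue of bradykinin. It was at 1.08, 0.91 and 1.09 in TCEP replicates 1, 2 and 3, against 0.95, 1.27 and 0.99 in vehicle replicates 1, 2 and 3. TCEP replicate 2 was the lowest and vehicle replicate 2 the highest of the 6 rats, and the other rats lay close together. The means were 1.03 ± 0.10 in TCEP and 1.07 ± 0.18 in vehicle cortex, a difference of -0.04 (SE 0.11, 95% confidence interval -0.31 to 0.23, adjusted p = 0.941 with limma). The sign turned without TCEP replicate 2 (0.02) and without vehicle replicate 2 (0.06).

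Naaladl1 and Treh had negative levels, below the 75th percentile of each array. Naaladl1 encodes a dipeptidase-like relative of glutamate carboxypeptidase II. It was at -3.67, -3.49 and -3.65 in TCEP replicates 1, 2 and 3, against -3.45, -3.34 and -3.19 in vehicle replicates 1, 2 and 3. All TCEP rats lay below all vehicle rats, and the gap between the nearest rats was small. The difference was -0.28 (SE 0.09, 95% confidence interval -0.51 to -0.05, unadjusted p = 0.0252 and adjusted p = 0.555 with limma), or 0.825 times the vehicle level. Its processed signal was 76.9 to 86.4 intensity units on TCEP arrays and 88.6 to 108 on vehicle arrays, where the lowest signals well above background were 16.2 to 17.8 on TCEP arrays and 15.0 to 18.4 on vehicle arrays. The other Naaladl1 probe was not well above background on any array and was not tested.

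Treh was at -5.01, -4.64 and -4.55 in TCEP replicates 1, 2 and 3, against -5.04, -4.62 and -4.55 in vehicle replicates 1, 2 and 3. Both groups spanned the same range, and the difference was -0.0014 (SE 0.18, 95% confidence interval -0.44 to 0.44, adjusted p = 0.998 with limma). The difference was 0.14 without TCEP replicate 1 and -0.15 without vehicle replicate 1. Its processed signal was 33.4 to 41.1 intensity units on TCEP arrays and 29.4 to 42.3 on vehicle arrays. The other Treh probe differed by -0.01 (SE 0.21), but it did not follow the first across arrays (r = 0.115 over 6 arrays), so the order of the rats for Treh depends on the probe.

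By the limma fit, 0 of 8 genes passed the adjusted threshold of 0.05, which 0 of 11802 tested genes (0.0%) passed. At an unadjusted p under 0.05 stood 1 of 8 genes, Naaladl1, against 8.36% of all tested genes in either direction, 4.24% in the higher and 4.13% in the lower direction. The groups did not overlap for 1 of 8 genes, again Naaladl1, against 15.6% of all tested genes, 8.66% in the higher and 6.99% in the lower direction. A count of 1 in 8 is near these shares and no result about the 8 genes. Of all 11802 tested genes, 52.5% had a higher mean in TCEP cortex, and counts of higher means here and below stand beside this share. 4 genes had higher means in TCEP cortex (Mme, Mep1a, Mep1b and Dpp4) and 4 had lower means (Anpep, Xpnpep2, Naaladl1 and Treh), with the signs of Xpnpep2 and Treh turned where arrays were not scaled. Their median difference was 0.10, and that of all tested genes was 0.01. It was 0.02 without vehicle replicate 3 and 0.15 without vehicle replicate 2. A missed threshold does not show that levels were equal, and the intervals of Mme and Mep1b were wide, reaching 3.44-fold and 3.14-fold of the vehicle level.

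**Figure D2:**
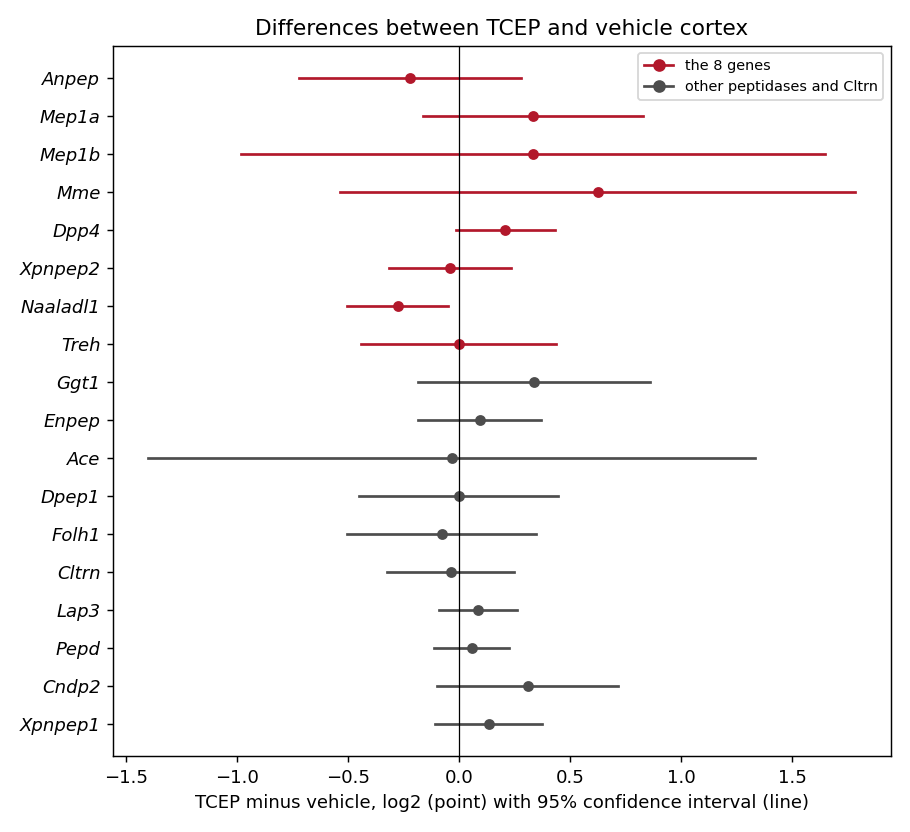
TCEP minus vehicle difference on the log2 scale (point) with its 95% confidence interval (line) for the 8 genes in red and for other peptidases and Cltrn in grey, 3 rats per group. Every interval includes 0 except that of Naaladl1, which ends at -0.05, and among the genes plotted the intervals of Mep1b, Mme and Ace are the widest.

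Rats of the same group were spread most for Mep1b and Mme and least for Dpp4 and Naaladl1. The SD between rats of the same group, pooled over both groups, was 0.79 for Mep1b and 0.70 for Mme, against a median of 0.13 over all tested genes. A larger SD was seen in 1.65% of tested genes for Mep1b and in 2.42% for Mme. Anpep (0.29), Mep1a (0.29) and Treh (0.25) were intermediate. Xpnpep2 (0.14), Naaladl1 (0.11) and Dpp4 (0.11) were close to the median gene.

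**Figure D3:**
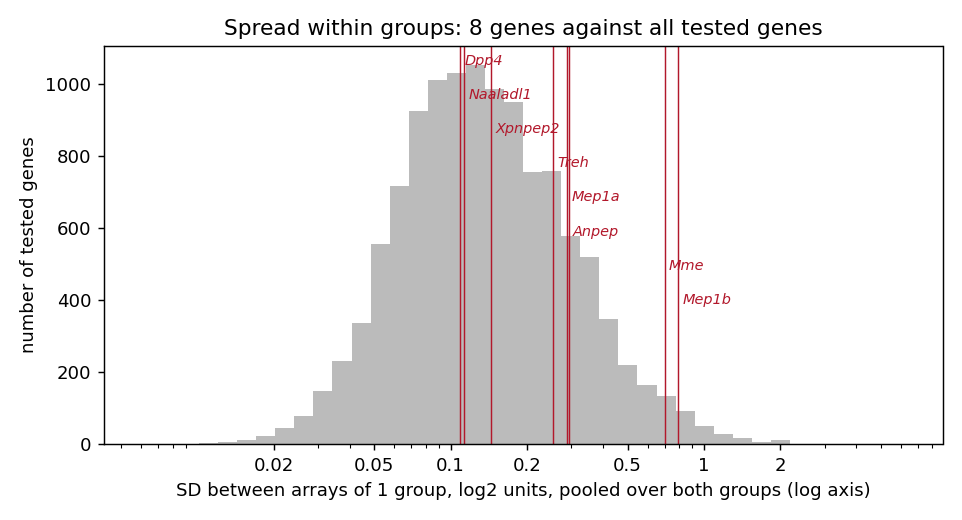
Distribution over all 11802 tested genes of the SD between rats of 1 group (log2 units, pooled over both groups, log axis), with the 8 genes marked by red lines. Mme and Mep1b lie in the right tail at 0.70 and 0.79, while Dpp4, Naaladl1 and Xpnpep2 lie near the centre.

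Mep1b, Mme, Mep1a and Dpp4 had the same highest rat in each group. TCEP replicate 1 was the highest and TCEP replicate 3 the lowest TCEP rat for all 4 genes. Vehicle replicate 2 was the highest vehicle rat for all 4, and vehicle replicate 3 was the lowest for Mep1b, Mme and Dpp4. Relative to the mean of each gene over 6 arrays, Mme deviated by 1.07, 0.28 and -0.41 in TCEP replicates 1, 2 and 3, and by -0.23, 0.30 and -1.01 in vehicle replicates 1, 2 and 3. Mep1b deviated by 0.79, 0.23 and -0.52 in TCEP replicates 1, 2 and 3, and by -0.31, 0.81 and -0.998 in vehicle replicates 1, 2 and 3. Anpep ran the other way, with vehicle replicate 3 (0.45) and TCEP replicate 3 (0.19) as its highest rats.

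Over the 6 rats Mep1b and Mme had a Pearson r of 0.933 (exact permutation p = 0.00833, two-sided) and a Spearman rho of 0.943 (exact permutation p = 0.0167). With the group means removed r was 0.957, and without the 2 rats farthest from the Mep1b median it was 0.994 over the 4 rats left. Anpep and Mep1b had r = -0.858 (exact permutation p = 0.0278) and rho = -0.771 (exact permutation p = 0.103). Without the 2 rats farthest from the Anpep median, r was -0.973 over the 4 rats left. Mme and Dpp4 had r = 0.923 (exact permutation p = 0.0194) and rho = 0.886 (exact permutation p = 0.0333). Without the 2 rats farthest from the Mme median, r fell to 0.60 over the 4 rats left. With the group means removed, r of Mme and Dpp4 was 0.980 over the 6 rats. Leaving out the outermost rats also narrows the range of Mme, so the fall to 0.60 cannot show what the relation rests on. The pairs Mep1a and Mep1b (r = 0.713, exact permutation p = 0.108) and Mep1b and Dpp4 (r = 0.766, exact permutation p = 0.0861) were less close. Of the 28 pairs among the 8 genes, none passed after Benjamini-Hochberg adjustment over the 28 pairs, where the smallest value was 0.194 for r and 0.233 for rho. All points of a pair share the array and its scaling. With 3 rats per slide there are too few to give r for either slide alone, and r with the group means removed pools both slides.

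**Figure D4:**
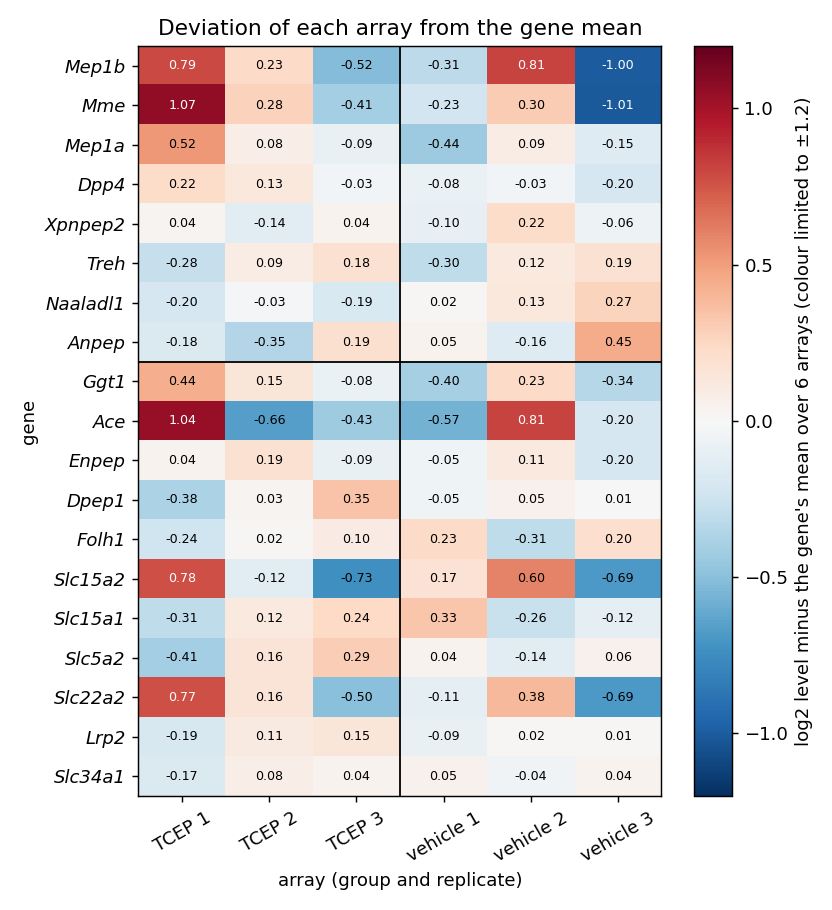
Deviation of each array from the gene's own mean over 6 arrays (log2 units, colour limited to ±1.2), for the 8 genes above the line and for related peptidases, carriers and proximal tubule markers below it, TCEP arrays left and vehicle arrays right. Mep1b, Mme and Slc15a2 are high in TCEP replicate 1 and vehicle replicate 2 and low in TCEP replicate 3 and vehicle replicate 3, as is Slc22a2 of the proximal tubule markers, while the markers Lrp2 and Slc34a1 stay within 0.2 of their means.

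Promoter sequences of 3 genes are shown because Mep1b and Mme had the highest r of the 28 pairs, and Anpep and Mep1b the lowest. Each is the 250 bases before the 1 start per gene that the RefSeq promoter table (GRCr8) uses, 5′ to 3′ on the gene's strand. For Mep1b this start is the outer limit of the RefSeq gene, while for Mme and Anpep it lies inside the limits of a gene with several transcripts. Capitals mark the dinucleotide CG, which reads the same on both strands and is the usual target of DNA methylation in mammals. Mep1b lies on the plus strand at chr18:12640791-12641040, Mme on the plus strand at chr2:149872247-149872496 and Anpep on the minus strand at chr1:143195102-143195351.
Mep1b: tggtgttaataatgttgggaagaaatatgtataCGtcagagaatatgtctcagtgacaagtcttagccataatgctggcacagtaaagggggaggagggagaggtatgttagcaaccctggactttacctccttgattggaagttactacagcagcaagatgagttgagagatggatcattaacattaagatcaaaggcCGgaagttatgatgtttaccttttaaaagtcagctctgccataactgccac
Mme: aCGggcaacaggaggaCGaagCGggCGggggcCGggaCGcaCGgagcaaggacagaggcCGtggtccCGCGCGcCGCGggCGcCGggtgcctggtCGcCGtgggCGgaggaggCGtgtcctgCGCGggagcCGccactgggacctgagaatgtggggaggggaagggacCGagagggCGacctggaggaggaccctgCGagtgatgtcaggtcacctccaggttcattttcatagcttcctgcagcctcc
Anpep: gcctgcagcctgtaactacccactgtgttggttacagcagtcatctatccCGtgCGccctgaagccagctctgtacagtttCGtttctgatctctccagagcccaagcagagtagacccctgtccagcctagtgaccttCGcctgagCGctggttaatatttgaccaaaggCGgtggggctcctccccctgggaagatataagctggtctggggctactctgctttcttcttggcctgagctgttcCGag
The 3 sequences differed in base composition. The Mme sequence held 25 CG dinucleotides, and 70.4% of its bases were G or C. The Mep1b sequence held 2 CG dinucleotides at 41.6% G or C, and the Anpep sequence held 7 at 55.6%. Of the 6 genes with an entry, Dpp4 held 19, and Mep1a and Xpnpep2 held 4 each. Over the 33469 promoters of the same length the median was 5 CG dinucleotides, 92.2% held at least 1, and 9.74% held as many as Mme or more. The count of CG was chosen after the expression values were seen, and it is a description of these letters only.

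Other peptidases of the tubule surface showed no call either. This list was drawn up by role, and its 12 tested genes include Cltrn, which is no peptidase. Of the 12, 4 had higher and 8 had lower means in TCEP cortex, with a median difference of -0.03. The adjusted threshold was passed by 0, and 0 had an unadjusted p under 0.05 (8.36% of all tested genes). Groups did not overlap for 0 of the 12 (15.6% of all tested genes). Ggt1, the gamma-glutamyltransferase that opens glutathione breakdown, was at 6.32, 6.03 and 5.80 in TCEP replicates 1, 2 and 3, against 5.48, 6.11 and 5.54 in vehicle replicates 1, 2 and 3. Vehicle replicate 2 lay inside the TCEP range, and the difference was 0.34 (SE 0.21, adjusted p = 0.712 with limma). Ace, which makes angiotensin II, was high in TCEP replicate 1 (-0.18) and vehicle replicate 2 (-0.41) as Mep1b was, and between -1.89 and -1.43 in the other rats.

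Enpep, the aminopeptidase that starts angiotensin II breakdown, differed by 0.09 (SE 0.11). Dpep1, a dipeptidase of the glutathione pathway, differed by -0.0023 (SE 0.18) and Folh1, glutamate carboxypeptidase II, by -0.08 (SE 0.17). Cltrn, which encodes collectrin, an amino acid carrier partner without peptidase activity, differed by -0.04 (SE 0.12). The lowest rats for Folh1 were TCEP replicate 1 (2.67) and vehicle replicate 2 (2.61), the highest rats for Mep1b.

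In the list of intracellular peptidases, which includes the secreted enzyme Pm20d1, 13 of 18 tested genes had higher and 5 lower means. Of these 18, 0 passed the adjusted threshold and 0 had an unadjusted p under 0.05, beside 8.36% of all tested genes. Their median difference was 0.09. The aminopeptidase Lap3 differed by 0.09 (SE 0.07), the prolidase Pepd by 0.06 (SE 0.07), the dipeptidase Cndp2 by 0.31 (SE 0.17) and the cytosolic aminopeptidase P gene Xpnpep1 by 0.13 (SE 0.10). Groups did not overlap for 5 of the 18, 3 higher and 2 lower, beside 15.6% of all tested genes.

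Carriers that take up the products included 0 calls. Of 15 tested carriers of peptides, amino acids and glucose, 8 had higher and 7 lower means, with a median difference of 0.03 and 0 with an unadjusted p under 0.05, beside 8.36% of all tested genes. The peptide carrier Slc15a2, known in the rat from the straight part of the proximal tubule, was at 1.05, 0.15 and -0.46 in TCEP replicates 1, 2 and 3, against 0.44, 0.87 and -0.41 in vehicle replicates 1, 2 and 3. It followed the order of Mep1b within each group and differed by -0.05 (SE 0.48). The peptide carrier Slc15a1 and the glucose carrier Slc5a2, both known from the convoluted part, differed by 0.03 (SE 0.21) and 0.03 (SE 0.19). Slc5a2 was lowest in TCEP replicate 1 (6.88) and vehicle replicate 2 (7.15), where Mep1b was highest. Slc15a1 was lowest in the same rats (2.10 and 2.14). Other carriers of the list did not share this pattern. Slc7a9 and Slc2a2 were lowest in TCEP replicate 1 (5.12 and 3.29) but highest of the vehicle rats in vehicle replicate 2 (5.55 and 3.68). These orders were singled out after the values were seen. The part of the tubule's segments in this spread was not tested.

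The amino acid carriers named here had differences of either sign. Slc3a1 and Slc7a9, the subunits of the cystine carrier, differed by 0.06 (SE 0.16) and -0.04 (SE 0.16), the neutral amino acid carrier Slc6a19 by 0.15 (SE 0.12) and the basolateral glucose carrier Slc2a2 by -0.07 (SE 0.11). Of 11 tested brush border scaffold genes 9 had higher and 2 lower means, 0 with an unadjusted p under 0.05, beside 8.36% of all tested genes. The microvillar genes Vil1, Ezr and Pdzk1 differed by 0.13 (SE 0.10), 0.09 (SE 0.11) and 0.04 (SE 0.09). The list of proximal tubule transcription factors held 7 tested genes, among them Cdx2, a factor known from the intestine. Of these 7, 4 had higher and 3 lower means and 1, Maf, had an unadjusted p under 0.05, beside 8.36% of all tested genes. The difference of Maf was -0.60 (SE 0.23, unadjusted p = 0.0381 and adjusted p = 0.579 with limma), with all TCEP rats below all vehicle rats, and this gene was singled out for its p. Hnf4a differed by 0.09 (SE 0.19).

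Markers of the labelled tissue were present: all 16 proximal tubule markers were tested, as were 8 of 8 podocyte markers and 9 of 9 markers of the distal tubule and collecting duct. Proximal tubule markers had a median difference of -0.01, with 7 higher and 9 lower means. The endocytic receptor gene Lrp2 differed by 0.04 (SE 0.11) and the phosphate carrier gene Slc34a1 by -0.04 (SE 0.09). The mean deviation of the list lay between -0.08 and 0.07 on TCEP arrays and between -0.04 and 0.02 on vehicle arrays. Within-group SDs of the 16 single markers ran from 0.08 to 0.59 with a median of 0.13. The highest was that of Slc22a2, an organic cation carrier, which deviated by 0.77, 0.16 and -0.50 in TCEP replicates 1, 2 and 3, and by -0.11, 0.38 and -0.69 in vehicle replicates 1, 2 and 3. It ordered the rats of each group as Mep1b did, and it was singled out after its values were seen. At an unadjusted p under 0.05 stood 2 of the 16, Aqp1 (0.21) and Slc5a12 (-0.28), beside 8.36% of all tested genes. The injury marker Havcr1 differed by 0.17 (SE 0.52), and 0 of 7 tested injury markers had an unadjusted p under 0.05, beside 8.36% of all tested genes.

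Other cell types of the samples can also express some of these enzymes: podocytes and neutrophils are known to express Mme, myeloid cells Anpep and lymphocytes Dpp4. Podocyte markers had lower means in TCEP cortex in 8 of 8 genes, where 52.5% of all tested genes had higher means. The summed signal of podocyte markers, in multiples of the array's 75th percentile, was 28.8 to 38.0 on TCEP and 30.8 to 38.6 on vehicle arrays. The mean deviation of neutrophil markers (4 of 6 tested) was 1.56 in vehicle replicate 2, and that of lymphocyte markers (7 of 9 tested) was 0.57 there, the highest of the 6 arrays in both. Their summed signals were 0.460 to 0.849 on TCEP and 0.454 to 3.04 on vehicle arrays for neutrophil markers, and 1.42 to 1.76 on TCEP and 1.22 to 2.41 on vehicle arrays for lymphocyte markers. Macrophage and monocyte markers (6 of 8 tested) summed to 13.8 to 15.5 on TCEP and 13.6 to 19.9 on vehicle arrays, with Cd163 not well above background on any array. Fat markers (4 of 6 tested) had mean deviations of 0.83, 0.34 and -0.26 in TCEP replicates 1, 2 and 3, and of -0.17, 0.14 and -0.87 in vehicle replicates 1, 2 and 3, the order in which Mme ranked the rats of each group. Their summed signal was 1.88 to 3.72 on TCEP and 1.28 to 3.11 on vehicle arrays, and Lep was not well above background on any array. The order of Mme was not particular to fat markers. Brush border scaffold genes had mean deviations of 0.097, 0.083 and 0.022 in TCEP replicates 1, 2 and 3. In vehicle replicates 1, 2 and 3 they had -0.098, 0.084 and -0.190. Intracellular peptidases had 0.111, 0.052 and -0.026 in TCEP replicates 1, 2 and 3. In vehicle replicates 1, 2 and 3 they had -0.112, 0.133 and -0.158.

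Median differences of these lists moved with single rats. The median was -0.56 for neutrophil markers, 0.025 without vehicle replicate 2 and -1.16 without vehicle replicate 3. It was -0.04 for lymphocyte markers, 0.21 without vehicle replicate 2 and -0.26 without vehicle replicate 1, and -0.11 for macrophage and monocyte markers, -0.04 without vehicle replicate 2 and -0.23 without vehicle replicate 1. For fat markers it was 0.45, with 0.06 without vehicle replicate 3 and 0.76 without vehicle replicate 2. For podocyte markers it was -0.22, between -0.28 and -0.13 when each rat was left out. Fibroblast and vessel wall markers (6 of 6 tested) had a median of 0.04, between -0.08 and 0.18, and thick ascending limb markers (5 of 6 tested) one of -0.14, between -0.18 and -0.05.

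Distal tubule and collecting duct markers had a median difference of -0.33, between -0.44 and -0.27 when each rat was left out. Of these 9 genes 8 had lower means, 5 had an unadjusted p under 0.05 in the lower direction, beside 4.13% of all tested genes, and 4 showed no overlap, all lower, beside 6.99%. The 5 genes, named after their values were seen, were Calb1 (-0.58), Slc26a4 (-0.49), Trpv5 (-0.42), Avpr2 (-0.33) and Atp6v1b1 (-0.29). In other lists of this kind, genes at an unadjusted p under 0.05 included Kcnj1 of the thick ascending limb (-0.32), Pdgfra of the fibroblast (0.26) and Fabp4 of the fat markers (1.41). No gene of any of these lists passed the adjusted threshold. The part of these cell types in the spread of Mme, Mep1b and Dpp4 was not tested.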

How the data were processed

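Cortex RNA of 6 rats was labelled with Cy3 and hybridised to 1-colour Agilent arrays, per the labels' protocols. Scanner files were made by the authors with Agilent Feature Extraction 10.7.1.1, per the file headers (10.7 in the submitters' processing notes). Their deposited processed signal is a linear intensity, background-subtracted and not scaled between arrays. Deposited flags, other values of 0 or 1, mark outliers, saturation and spots clearly above background. In the deposited series matrix stands the same intensity divided by a constant per array within 0.146% of its 75th percentile, with column medians of 0.104 to 0.107. No centring of genes was seen.

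Probes were named through unversioned accessions in a RefSeq table (GRCr8), with 27460 of 61657 non-control probes (44.5%) matched and 12 outlier probes left out. The arrays' design is annotated on another build, per the file headers, so no probe coordinates are given, and the printed promoter positions are those of RefSeq on GRCr8. The log2 processed signal minus the log2 75th percentile of each array was used. The probe with the highest mean signal stood for a gene and entered the test if flagged as above background in every rat of the TCEP or of the vehicle group (11802 genes). A two-sided test with group as sole term (limma 3.58.1, R 4.3.3, functions lmFit and eBayes, Benjamini-Hochberg adjustment, called under 0.05) gave differences, SE and intervals. The fit was tested on simulated data. Levels were not compared between genes. Correlations between the 8 genes used exact permutation of the pairings. Tables and figures were made with pandas 2.3.3, matplotlib 3.10.9 and numpy 2.4.6 under Python 3.11.15.

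The 8 genes, the 15 other lists and the named genes (all 8, and others fixed by role) were chosen with earlier results of these data known. Replicate numbers come from the titles, and no label says that they mark a shared litter, cage or day. Same-numbered arrays had correlated deviations of -0.15, -0.10 and 0.23. These values cannot show whether the numbers pair the rats, and the main fit took the rats as unpaired.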

Additional observations from a re-analysis of the deposited data

How the results depend on the processing

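In each of the 17 other settings that were fitted, limma called 0 genes at an adjusted p under 0.05, and the number at an unadjusted p under 0.05 was 987 as reported. That number was 386 with spike-in centring and 1572 with normexp on the median signals, and 700 to 1008 when each rat was left out in turn; the cause was not tested. The share of higher genes among them was 50.7% as reported, 69.7% where arrays were not scaled and 66.1% after centring on spike-ins. The replicate block gave 854 genes, and no call changed with it. With this block the SE was lower than reported for Mme (0.28), Mep1b (0.35), Dpp4 (0.08), Anpep (0.07) and Treh (0.07). It was higher for Mep1a (0.23), Xpnpep2 (0.13) and Naaladl1 (0.095). The median of the 8 genes stayed between 0.02 and 0.15 when each rat was left out, and 4 to 6 of them were higher. The signs of Mme (0.25 to 0.99), Mep1a (0.16 to 0.46), Dpp4 (0.12 to 0.28), Anpep (-0.37 to -0.05) and Naaladl1 (-0.34 to -0.19) held in all settings. Mep1b ranged over -0.081 to 0.82 and turned negative without vehicle replicate 3 alone. Xpnpep2 turned to 0.0014 without scaling, 0.053 with normexp, 0.02 without TCEP replicate 2 and 0.061 without vehicle replicate 2, and its lowest value with a rat left out was -0.10. Treh turned to 0.027 with quantile normalization, 0.041 without scaling, 0.031 with spike-in centring, 0.15 with array weights, 0.14 without TCEP replicate 1, 0.06 without vehicle replicate 2 and 0.09 without vehicle replicate 3, and its lowest was -0.15. Naming probes by a gene name column was not run, since the scanner columns used here hold none. With each rat left out, list medians ran from -0.06 to 0.03 for surface peptidases, 0.05 to 0.12 for intracellular peptidases and -0.05 to 0.05 for carriers. Treh had low signal and probes that did not follow each other across arrays, and a link between these was not tested. The use of 6 arrays limits the precision of all differences.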

Other observations

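The genes whose levels over the 6 arrays were most like the mean deviation of the 8 genes, by Pearson r among 11794 other tested genes, were B4gat1 (r = 0.993), Smarca2 (r = 0.992), Hsd3b2 (r = 0.992), S100a5 (r = 0.989) and Mrps14 (r = 0.985). Of these 11794 genes, 225 had r above 0.9 over the 6 arrays. The mean deviation was taken over unscaled values, so the genes with the widest spread, Mep1b and Mme, weighed most in it. Anpep ran the other way from Mep1b, so a high r is no likeness to each of the 8 genes. The genes named were picked for the highest r, and their r was not tested. Hsd3b2, which encodes a steroid dehydrogenase, was at -2.08, -3.07 and -3.55 in TCEP replicates 1, 2 and 3, against -3.94, -2.44 and -3.75 in vehicle replicates 1, 2 and 3, so that TCEP replicate 1 and vehicle replicate 2 stood apart from the other rats. Its difference was 0.48 (unadjusted p = 0.401 with limma).

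A pair of intracellular peptidase genes, singled out after their values were seen, also had TCEP replicate 1 and vehicle replicate 2 as the highest rats of their groups. Prep, for prolyl endopeptidase, was at 5.30 in TCEP replicate 1 and 5.03 in vehicle replicate 2, and between 3.65 and 4.01 in the other rats. Cndp1, for carnosine dipeptidase 1, was at 4.59, 3.78 and 2.80 in TCEP replicates 1, 2 and 3, against 2.10, 3.47 and 1.80 in vehicle replicates 1, 2 and 3. Its difference was 1.27 (SE 0.60, adjusted p = 0.645 with limma), and vehicle replicate 2 lay inside the TCEP range.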
